A study of Mus musculus with 21 samples.

Results

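Genes of cholesterol and fatty acid synthesis were followed through chemical reprogramming of mouse cells, a procedure that turns fibroblasts into pluripotent cells with small molecules and without introduced genes. The genes were a list of 31 named enzymes, regulators and carriers, picked by symbol, with earlier results of these data known. Of the 31, 30 had a row in the expression tables, which hold 43436 gene IDs, and all 30 passed the filter on low values with 16650 genes in all. Mvd, mevalonate diphosphate decarboxylase, was not analysed here. The level of a gene was its FPKM (fragments per unit of transcript length and of mapped fragments), which is scaled by transcript length, so levels of different genes can be set side by side. RNA from 21 libraries in 11 groups was sequenced. Fibroblasts (MEF, 2 libraries) came from E13.5 embryos of strain C57BL/6J-Tg(GOFGFP)11Imeg/RbrcxICR, which carries a green fluorescent reporter transgene. Cells of that strain on the way to pluripotency gave 2 libraries at day 16 and 1 library each at day 12, day 20, day 26 and day 28. The products were 7 chemically induced pluripotent stem cell lines (CiPSC), also of that strain, with 1 library per line: C1 to C3, G1, G3, N4 and N6. Embryonic stem cells (ESC) were derived from embryonic day 3.5 embryos, with replicate 1 from the reporter strain and replicate 2 derived from the strain C57BL/6 (B6)N. The extraembryonic endoderm (XEN) cells, the cultured counterpart of the primitive endoderm of the blastocyst, were wild-type ICR in every library. CeXEN (2 libraries) were derived from embryonic day 3.5 embryos in the first-stage reprogramming medium, whose small molecules the labels abbreviate as VC6TFAE, with 20 ng/ml bFGF. The library eXEN-1 came from an established XEN line kept in the VC6TF form of that medium with 20 ng/ml bFGF, and eXEN-2 came from an established XEN line kept in conventional XEN medium. The eXEN-1 and CeXEN media therefore differ by the components A and E, and each eXEN condition is a single library of a line from another laboratory. The labels do not say whether the 2 libraries of MEF, day 16 or CeXEN came from separate cultures or embryos. The spread between them may therefore be technical, while the spread between the 2 ESC libraries holds a difference of strain.

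Cells make cholesterol from acetyl-CoA through mevalonate, isoprenyl diphosphates, squalene and lanosterol, and they make fatty acids from the same acetyl-CoA by way of malonyl-CoA. Both pathways are driven by the SREBP transcription factors, encoded by Srebf1 and Srebf2, which are held in the endoplasmic reticulum by INSIG proteins while sterols are plentiful and are released to the nucleus when sterols run low. Serum lipoproteins supply cultured cells with sterol from outside, and SREBP target genes are known for falling together when that supply is ample.

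SREBP binds sterol regulatory elements in the promoters of these genes, usually beside sites of the factor NF-Y, so the 250 bases before the RefSeq start of each gene (GRCm38.p6) were searched on both strands for letters of these elements. The sterol regulatory element was searched as TCACNCCAC, NF-Y as CCAAT and the E-box as CACGTG, none of which holds another of the 3 within it. RefSeq windows were matched for 22 of the 30 genes, and Fdps, Fdft1, Sqle, Stard4, Soat2, Scd1, Scd2 and Fads1 had none. CCAAT was found in 17 of the 22 genes and in 66.667% of their 27 windows, against 33.85% of all 32851 windows of that length. CACGTG was found in 4 of the 22 genes, namely Dhcr7, Hsd17b7, Insig1 and Sc5d, and in 14.815% of the 27 windows, against 6.021% of all windows. TCACNCCAC was found in Hmgcs1 alone, in 3.704% of the 27 windows, against 1.053% of all windows. The longer SRE-1 form, which is an A followed by TCACCCCAC and so holds the shorter element, was in none of the 22 genes and in 0.073% of all windows. A match is a description of letters and not a bound site. Only these exact letters were searched, so a window without a match may still hold a site. The promoters of the 3 sterol synthesis genes with most matches and of 1 fatty acid gene are shown, 5′ to 3′ on the strand of the gene up to the base before its start, with matches in capitals (ATTGG is CCAAT on the other strand).
Mvk, chr5:114444019-114444268, plus strand: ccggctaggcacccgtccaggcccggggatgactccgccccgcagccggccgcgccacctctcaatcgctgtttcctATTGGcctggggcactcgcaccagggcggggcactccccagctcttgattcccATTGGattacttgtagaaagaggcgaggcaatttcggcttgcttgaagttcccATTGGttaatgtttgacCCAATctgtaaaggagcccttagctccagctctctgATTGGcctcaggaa
Hmgcs1, chr13:119690101-119690350, plus strand: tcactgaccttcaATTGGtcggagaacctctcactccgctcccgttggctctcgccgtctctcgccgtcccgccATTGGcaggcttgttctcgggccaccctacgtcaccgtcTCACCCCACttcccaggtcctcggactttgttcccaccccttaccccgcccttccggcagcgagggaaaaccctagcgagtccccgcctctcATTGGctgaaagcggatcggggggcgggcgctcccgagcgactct
Hsd17b7, chr1:169969206-169969455, minus strand: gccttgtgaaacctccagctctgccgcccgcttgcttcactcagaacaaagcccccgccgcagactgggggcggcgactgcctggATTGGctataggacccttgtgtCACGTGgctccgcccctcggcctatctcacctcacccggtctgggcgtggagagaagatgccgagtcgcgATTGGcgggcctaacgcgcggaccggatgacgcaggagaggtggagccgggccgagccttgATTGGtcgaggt
Fasn, chr11:120824548-120824797, minus strand: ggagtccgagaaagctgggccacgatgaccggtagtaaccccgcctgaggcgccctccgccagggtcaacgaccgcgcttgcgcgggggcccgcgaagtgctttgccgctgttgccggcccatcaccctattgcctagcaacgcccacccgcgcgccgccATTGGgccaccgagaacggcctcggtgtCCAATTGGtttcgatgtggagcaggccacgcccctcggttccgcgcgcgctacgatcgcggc
Mvk held 5 CCAAT matches and no other motif. In Hmgcs1 the TCACCCCAC match began 137 bases before the start, and the CCAAT matches began 237, 176 and 45 bases before it. Hsd17b7 held 3 CCAAT matches and 1 E-box, and Fasn held 3 CCAAT matches, of which 2 share bases.

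The labels were checked against markers of each cell type. The summed level of 7 XEN markers was 1330 to 3831 FPKM at day 16 and in the XEN libraries and 6.62 to 34.5 in MEF, ESC and CiPSC. That of 7 pluripotency markers was 4287 to 5381 in ESC and CiPSC and at most 631 elsewhere. MEF replicate 2 also held markers of fat cells: the sum of 6 adipocyte markers was 35.6 FPKM, against 0.868 in MEF replicate 1 and at most 2.79 in every other library. The 6 macrophage markers summed to 115.6 and 38.2 FPKM in MEF replicates 1 and 2 and to at most 35.9 elsewhere. Depth, estimated from the quantifier's bounds for genes of few fragments, was 0.398 (CiPSC C3) to 1.59 (CiPSC N4) times that of ESC replicate 1. Soat2 rested on an estimated 0.396 fragments in CeXEN replicate 2, and Tm7sf2 on 7.69 in eXEN-2. The library kit is not one that marks strand, and exons of Fdft1, Cyp51, Hmgcs1, Idi1, Lss, Srebf1 and Elovl6 overlap those of a gene on the other strand. Exons of Fdps and Tm7sf2 overlap another gene model on the same strand, over 1124 and 532 bases, and Scd1 and Scd2 are close relatives, so the levels of these genes are less certain.

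**Figure D1:**
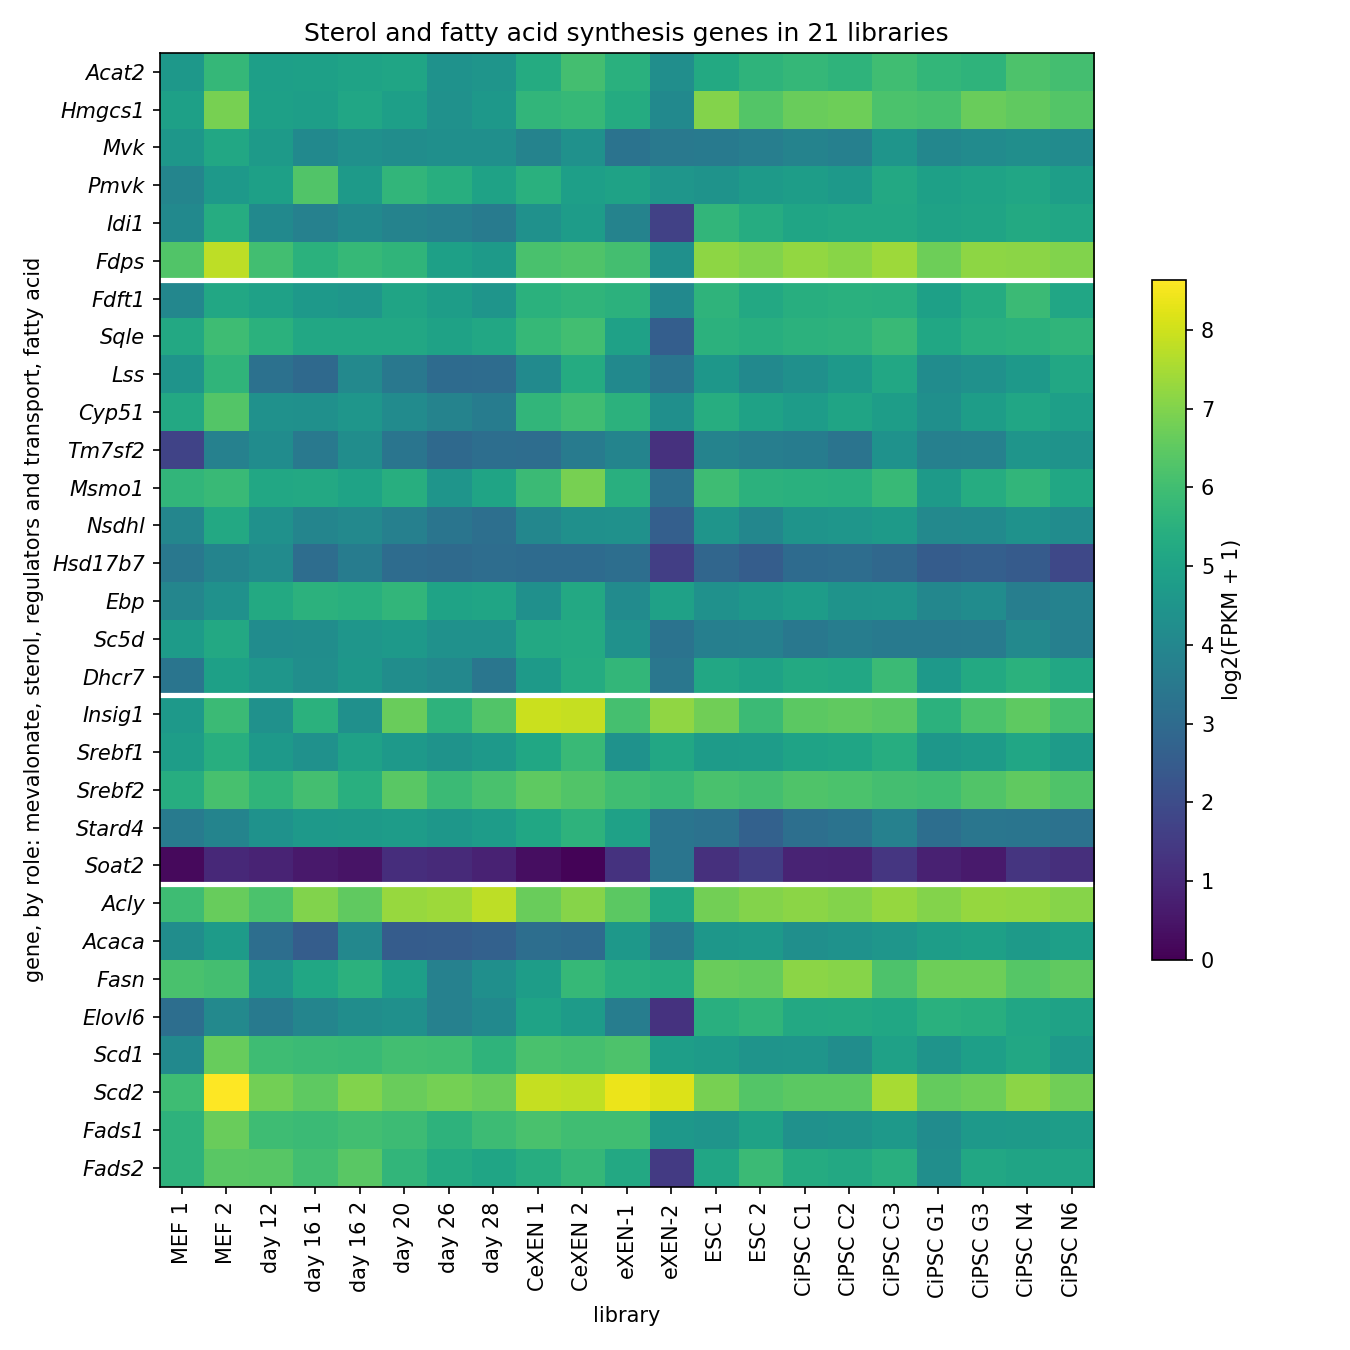
Heat map of log2(FPKM + 1) for 30 genes (rows, grouped by role between white lines) in 21 libraries (columns). The eXEN-2 column is darkest for Idi1 (2.18 FPKM), Sqle (5.04 FPKM) and Fads2 (1.79 FPKM), and the 2 CeXEN columns are brightest for Insig1.

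The eXEN library from conventional medium had lower levels of most enzymes of both pathways than that from the chemical medium. Of the 30 genes, 20 were more than 2-fold higher in eXEN-1 than in eXEN-2 on the log2(FPKM + 1) scale, against 7.05% of all tested genes. 2 genes, the sterol-gated inhibitor Insig1 and the cholesterol esterifying enzyme Soat2, were more than 2-fold lower in eXEN-1, against 3.97% of all genes, so that 22 of 30 genes were past 2-fold in either direction and 11% of all genes were. The median difference was 1.26 log2 units over the 30 genes and 0.08 over all tested genes. The desaturase gene Fads2 differed most: 36.3 FPKM in eXEN-1 against 1.79 in eXEN-2, a ratio of 20.3. There is 1 library per medium, so the difference has no replicate check and no test was made. The labels do not say whether eXEN-1 and eXEN-2 are the same line, so a difference of medium cannot be told apart from one of line or culture. The levels of both CeXEN libraries, which share the chemical medium apart from A and E, were compared as a description. eXEN-2 was below eXEN-1 and both CeXEN libraries for 22 of the 30 genes, as it was for 35.2% of all tested genes, and above all 3 for Soat2 alone, as for 17.6% of all genes. By role, eXEN-2 was below all 3 for 5 of 6 mevalonate genes, 10 of 11 sterol-committed genes, 5 of 8 fatty acid genes and 2 of 5 regulators and carriers. It was the lowest of all 21 libraries for 13 of the 30 genes, and alone lowest for 12.2% of tested genes. The summed level of the 7 XEN markers was 3831 FPKM in eXEN-2 and 1957 in eXEN-1, and its part in the result was not tested. In bulk RNA, fewer cells of a type and less RNA per cell cannot be told apart. With quantile normalization, which moved the median of all genes to -0.05, 18 genes were past 2-fold higher and 2 lower in eXEN-1, while the split of all genes past 2-fold went from 1173 higher and 661 lower to 796 higher and 818 lower.

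**Figure D2:**
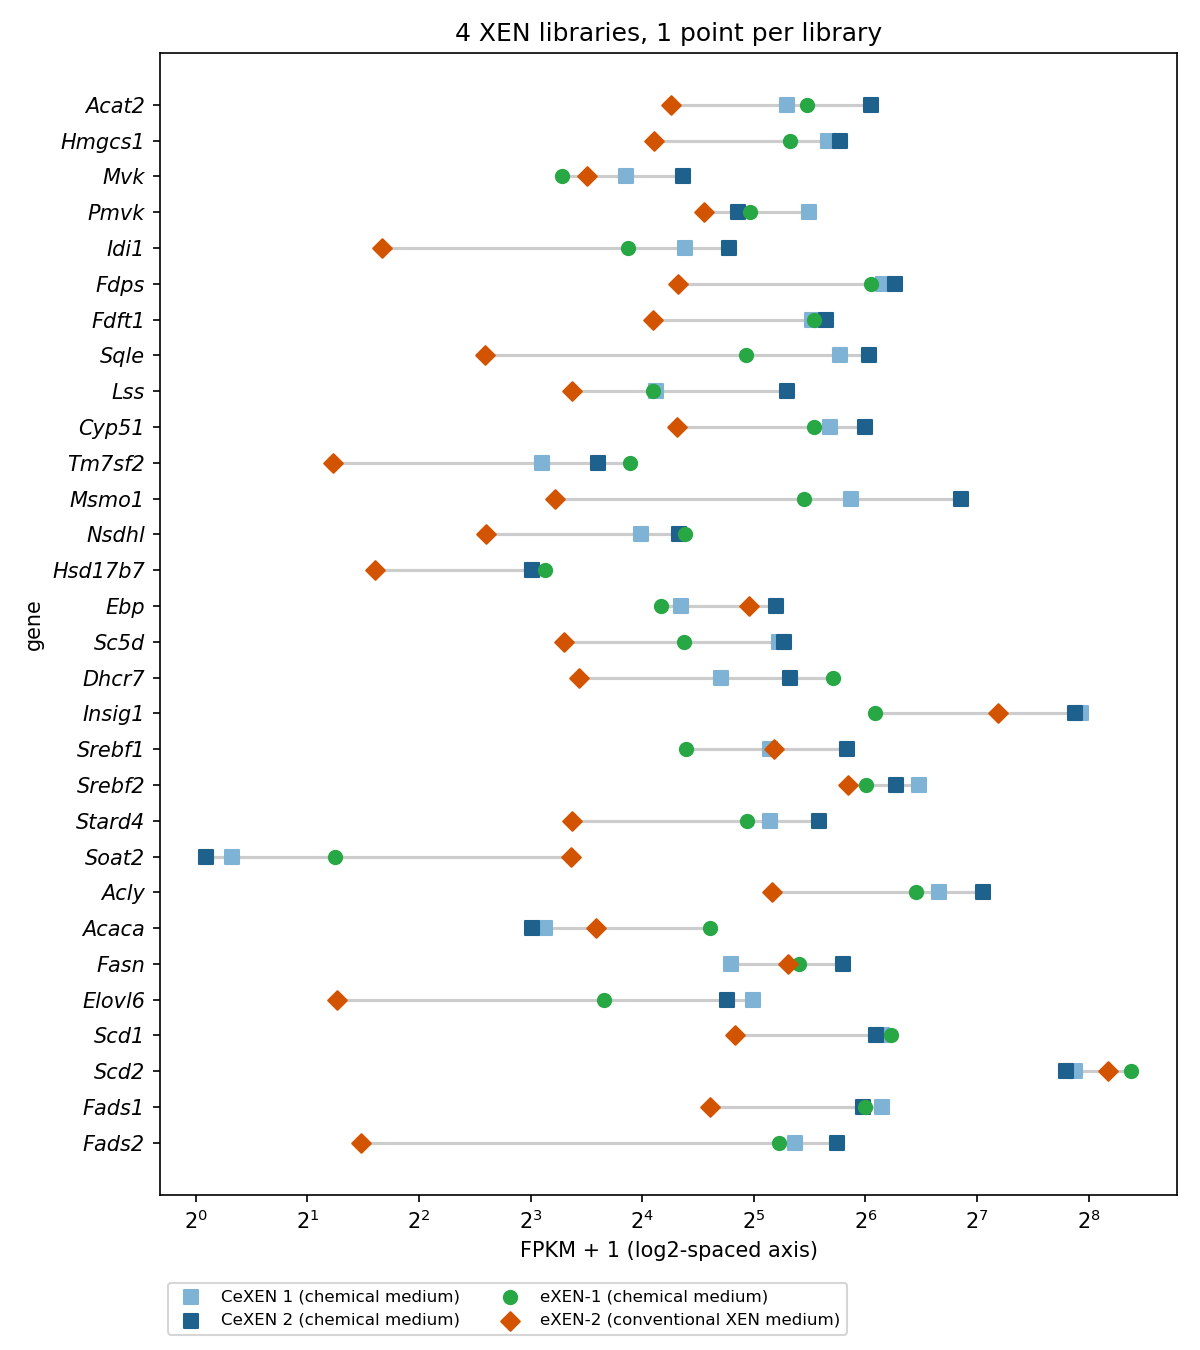
FPKM + 1 on a log2-spaced axis for 30 genes in the 4 XEN libraries (1 point per library, grey lines join the lowest and the highest). The orange diamonds of eXEN-2 lie left of the other 3 libraries for 22 genes, far left for Fads2, Tm7sf2, Elovl6, Idi1, Sqle and Msmo1, and right of them for Soat2.

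The values of these genes in every library follow, by role. For the cells on the way they are given in the order day 12, day 16 replicates 1 and 2, day 20, day 26 and day 28, and for the 7 CiPSC lines as the lowest, the median and the highest. Of the 6 mevalonate genes, 4 were past 2-fold between the eXEN libraries. Hmgcs1 was at 28.9 and 116 FPKM in MEF and at 29.0, 27.8, 33.2, 28.3, 19.7 and 23.6 in the cells on the way. The level was 49.9 and 53.7 in CeXEN, 39.0 in eXEN-1, 16.2 in eXEN-2, 129 and 78.3 in ESC, and 68.7, 90.3 and 105 in CiPSC. Hmgcs1 makes HMG-CoA, the substrate of the rate-limiting step of the pathway. Every ESC and CiPSC library was above every CeXEN, eXEN and day 12 to day 28 library, and the ratio of eXEN-1 to eXEN-2 was 2.41. Acat2 was at 23.1 and 53.3 FPKM in MEF and at 28.6, 29.3, 31.4, 33.0, 20.1 and 21.6 in the cells on the way. In the lines it stood at 38.4 and 65.3 in CeXEN, 43.6 in eXEN-1, 18.2 in eXEN-2, 37.3 and 48.0 in ESC, and 48.4, 52.8 and 73.3 in CiPSC. Acat2 encodes the thiolase that joins acetyl-CoA units into acetoacetyl-CoA. All 7 CiPSC lines were above the cells on the way, and eXEN-2 was the lowest library. Idi1 was at 16.2 and 39.8 FPKM in MEF and at 16.0, 12.8, 16.1, 13.46, 12.5 and 11.2 in the cells on the way. Its level was 19.8 and 26.4 in CeXEN, 13.7 in eXEN-1, 2.18 in eXEN-2, 50.1 and 39.8 in ESC, and 30.7, 33.4 and 36.6 in CiPSC. Idi1 interconverts the isoprenyl diphosphates from which longer isoprenoids are built. The other 20 libraries lay at 11.2 to 50.1 FPKM, so eXEN-2 stood below all of them, with a ratio of eXEN-1 to eXEN-2 of 6.28. Fdps was at 77.7 and 218 FPKM in MEF and at 64.4, 45.2, 53.8, 49.1, 29.1 and 25.1 in the cells on the way. In the XEN and pluripotent lines Fdps was at 70.5 and 75.8 in CeXEN, 65.4 in eXEN-1, 19.0 in eXEN-2, 143 and 126 in ESC, and 105, 141 and 164 in CiPSC. It makes farnesyl diphosphate, the branch point towards squalene and protein prenylation. ESC and CiPSC (105 to 164) were above every XEN library and every library of the cells on the way (25.1 to 75.8 without eXEN-2). MEF replicate 2, the highest of the 21, lay far above MEF replicate 1. Mvk and Pmvk, the kinases that phosphorylate mevalonate in turn, ranged over 8.73 to 35.1 and 14.3 to 77.0 FPKM in the 21 libraries. Mvk was lowest in eXEN-1, and Pmvk was highest in day 16 replicate 1, at 77.0 against 25.1 in replicate 2.

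The sterol-committed genes run from squalene synthase to the last reductases, and 9 of the 11 were past 2-fold higher in eXEN-1 than in eXEN-2. Sqle was at 36.1 and 61.0 FPKM in MEF and at 44.4, 35.1, 35.4, 35.1, 30.5 and 35.3 in the cells on the way. The lines had 53.7 and 64.5 in CeXEN, 29.6 in eXEN-1, 5.04 in eXEN-2, 45.8 and 41.5 in ESC, and 34.5, 46.3 and 57.2 in CiPSC. Sqle, squalene epoxidase, is a controlled step of the pathway. Its other 20 libraries spanned no more than 29.6 to 64.5 FPKM, and eXEN-2 stood far below that range. Msmo1 was at 51.0 and 57.0 FPKM in MEF and at 35.4, 35.8, 30.999, 41.2, 21.5 and 31.8 in the cells on the way. Its levels were 57.6 and 115 in CeXEN, 42.8 in eXEN-1, 8.32 in eXEN-2, 60.7 and 45.6 in ESC, and 25.4, 43.0 and 55.4 in CiPSC. Msmo1 removes the methyl groups at carbon C-4 of lanosterol-derived sterols. eXEN-2 was again below all other libraries (21.5 to 115), and the CeXEN replicates differed from each other. Tm7sf2 was at 2.37 and 12.9 FPKM in MEF and at 17.3, 10.4, 17.9, 9.33, 6.73 and 7.76 in the cells on the way. In the lines Tm7sf2 stood at 7.59 and 11.2 in CeXEN, 13.8 in eXEN-1, 1.34 in eXEN-2, 13.48 and 12.1 in ESC, and 8.95, 12.9 and 21.6 in CiPSC. This sterol reductase acts after lanosterol demethylation, and only MEF replicate 1 came near the level of eXEN-2. Nsdhl was at 14.6 and 35.8 FPKM in MEF and at 19.7, 14.1, 15.6, 12.6, 9.24 and 7.96 in the cells on the way. The X-linked gene Nsdhl was at 14.9 and 19.2 in CeXEN, 19.8 in eXEN-1, 5.08 in eXEN-2, 21.5 and 15.0 in ESC, and 15.6, 20.3 and 25.3 in CiPSC. It encodes a dehydrogenase of the demethylation complex, and eXEN-2 was its lowest library. Hsd17b7 was at 10.002 and 13.8 FPKM in MEF and at 16.9, 7.56, 11.3, 7.23, 6.91 and 7.59 in the cells on the way. Its level was 7.05 and 7.09 in CeXEN, 7.73 in eXEN-1, 2.05 in eXEN-2, 6.19 and 4.90 in ESC, and 2.64, 5.18 and 7.49 in CiPSC. Hsd17b7 is the ketoreductase of that complex, and CiPSC N6, at 2.64 FPKM, lay next to eXEN-2. Dhcr7 was at 9.32 and 29.2 FPKM in MEF and at 22.2, 18.1, 22.8, 17.8, 15.5 and 9.46 in the cells on the way. Lines were at 25.1 and 39.0 in CeXEN, 51.5 in eXEN-1, 9.78 in eXEN-2, 35.1 and 30.5 in ESC, and 24.2, 36.8 and 57.6 in CiPSC. Dhcr7 makes cholesterol from its last precursor. Its eXEN-2 level lay beside those of MEF replicate 1 and day 28, while eXEN-1 was exceeded by CiPSC C3 alone. Cyp51 was at 36.5 and 79.7 FPKM in MEF and at 19.5, 19.1, 22.5, 16.9, 13.503 and 11.3 in the cells on the way. Its levels in lines were 50.3 and 62.8 in CeXEN, 45.6 in eXEN-1, 18.9 in eXEN-2, 40.8 and 30.4 in ESC, and 18.5, 26.9 and 33.7 in CiPSC. Cyp51, lanosterol demethylase, was lower in every library of the cells on the way than in any library of MEF, CeXEN, ESC or eXEN-1. Fdft1 was at 15.0 and 35.5 FPKM in MEF and at 29.9, 23.9, 22.1, 31.6, 27.3 and 21.8 in the cells on the way. Fdft1 stood at 45.0 and 49.2 in CeXEN, 45.4 in eXEN-1, 16.1 in eXEN-2, 48.3 and 36.5 in ESC, and 29.0, 42.0 and 58.4 in CiPSC. This is squalene synthase, the first committed step to sterols, and MEF replicate 1 was lower than eXEN-2. Sc5d was at 25.8 and 35.9 FPKM in MEF and at 17.2, 17.7, 22.4, 23.9, 19.6 and 19.8 in the cells on the way. The lines held 36.4 and 37.7 in CeXEN, 19.8 in eXEN-1, 8.83 in eXEN-2, 12.2 and 12.6 in ESC, and 9.99, 11.2 and 15.6 in CiPSC. Sc5d, a sterol desaturase, was highest in the 2 CeXEN libraries, and eXEN-2 lay just under the lowest CiPSC line. Lss, which closes squalene epoxide into lanosterol, spanned 6.80 to 49.2 FPKM, and the sterol isomerase gene Ebp 11.9 to 50.01, with its 6 libraries from day 12 to day 28 (31.5 to 50.01) above all CiPSC lines (11.9 to 26.6).

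Of the 5 regulators and carriers, Stard4 alone was past 2-fold higher in eXEN-1, and Insig1 and Soat2 were past 2-fold lower. Insig1 was at 23.9 and 58.0 FPKM in MEF and at 19.7, 44.4, 19.3, 99.8, 46.7 and 78.1 in the cells on the way. Insig1 (chr5:28071363-28078662 in mm10) was at 243 and 234 in CeXEN, 66.9 in eXEN-1, 145 in eXEN-2, 108 and 57.7 in ESC, and 46.1, 86.0 and 90.7 in CiPSC. It encodes the protein that retains SREBP in the endoplasmic reticulum and is itself an SREBP target. The 2 CeXEN libraries were the highest of the 21, followed by eXEN-2. The order of the remaining groups overlapped: ESC replicates lay on either side of the day 20 library, and day 16 replicate 2 was as low as day 12. Stard4 was at 11.1 and 14.0 FPKM in MEF and at 20.4, 24.6, 24.9, 26.6, 22.8 and 26.5 in the cells on the way. Stard4 stood at 34.4 and 47.0 in CeXEN, 29.8 in eXEN-1, 9.34 in eXEN-2, 8.45 and 5.43 in ESC, and 7.61, 8.76 and 12.9 in CiPSC. It carries cholesterol between membranes. The CeXEN replicates and eXEN-1 were above every other library, and the 6 libraries from day 12 to day 28 were above MEF, ESC and CiPSC. Soat2 was at 0.174 and 1.01 FPKM in MEF and at 0.835, 0.523, 0.358, 1.17, 1.02 and 0.778 in the cells on the way. Its level was 0.25 and 0.0644 in CeXEN, 1.38 in eXEN-1, 9.30 in eXEN-2, 1.31 and 1.96 in ESC, and 0.55, 0.811 and 1.58 in CiPSC. Soat2 esterifies cholesterol for storage and export, and eXEN-2 alone had more than 1.96 FPKM. Soat2 passed the filter on low values with most libraries near 1 FPKM or less. Srebf1 ranged over 19.5 to 56.2 FPKM and Srebf2 over 41.1 to 91.1, and neither was past 2-fold between the eXEN libraries (20.1 and 35.2 for Srebf1, 63.2 and 56.4 for Srebf2). Neither passed the test in a comparison below.

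Of the 8 fatty acid genes, 6 were past 2-fold between the eXEN libraries, while Fasn and Scd2 were not. Fads2 was at 46.7 and 84.9 FPKM in MEF and at 82.5, 64.7, 85.4, 50.7, 37.5 and 32.7 in the cells on the way. Fads2 (chr19:10064164-10101503) stood at 40.2 and 52.7 in CeXEN, 36.3 in eXEN-1, 1.79 in eXEN-2, 33.9 and 58.2 in ESC, and 18.2, 35.4 and 42.9 in CiPSC. It is the delta-6 desaturase that starts the synthesis of long polyunsaturated fatty acids. All 20 other libraries lay at 18.2 to 85.4 FPKM, and the next lowest after eXEN-2 was CiPSC G1. Fads1 was at 46.4 and 101 FPKM in MEF and at 60.5, 58.0, 64.1, 59.97, 47.1 and 59.1 in the cells on the way. The neighbouring delta-5 desaturase gene Fads1 was at 70.2 and 62.1 in CeXEN, 62.9 in eXEN-1, 23.4 in eXEN-2, 21.7 and 30.5 in ESC, and 17.4, 24.2 and 27.2 in CiPSC. eXEN-2 lay within the CiPSC range, and the other XEN libraries lay at or above the level of the cells on the way. Scd1 was at 16.2 and 98.5 FPKM in MEF and at 61.0, 57.6, 57.3, 64.4, 63.1 and 47.5 in the cells on the way. In the lines it was at 69.9 and 67.4 in CeXEN, 74.2 in eXEN-1, 27.4 in eXEN-2, 26.0 and 21.01 in ESC, and 17.9, 24.6 and 34.9 in CiPSC. Scd1 makes monounsaturated fatty acids, and again eXEN-2 stood with ESC and CiPSC. Elovl6 was at 7.62 and 15.9 FPKM in MEF and at 10.5, 14.2, 17.95, 19.3, 13.0 and 16.2 in the cells on the way. Elovl6 stood at 30.9 and 26.0 in CeXEN, 11.6 in eXEN-1, 1.41 in eXEN-2, 42.3 and 49.0 in ESC, and 30.8, 36.1 and 43.8 in CiPSC. It elongates the product of fatty acid synthase, and it was higher in every ESC library than in every library that was not ESC or CiPSC. Acly was at 60.4 and 97.6 FPKM in MEF and at 72.6, 126, 91.2, 159, 165 and 216 in the cells on the way. Its level was 99.9 and 132 in CeXEN, 86.6 in eXEN-1, 34.8 in eXEN-2, 111 and 129 in ESC, and 129, 139.6 and 155 in CiPSC. Acly supplies cytosolic acetyl-CoA from citrate. Its highest library was day 28 and its lowest eXEN-2. Acaca was at 17.7 and 25.5 FPKM in MEF and at 7.78, 4.90, 15.4, 4.64, 4.90 and 5.41 in the cells on the way. Acaca was at 7.72 and 7.09 in CeXEN, 23.4 in eXEN-1, 11.0 in eXEN-2, 22.7 and 24.5 in ESC, and 18.6, 24.8 and 28.8 in CiPSC. It makes malonyl-CoA, the controlled step of fatty acid synthesis. The CeXEN libraries lay with the cells on the way other than day 16 replicate 2, and eXEN-1 lay with ESC and CiPSC. Fasn, fatty acid synthase, ranged over 12.9 to 139 FPKM with 41.4 in eXEN-1 and 38.6 in eXEN-2. Scd2, the related desaturase gene, ranged over 61.3 to 397 with 333 and 288.

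**Figure D3:**
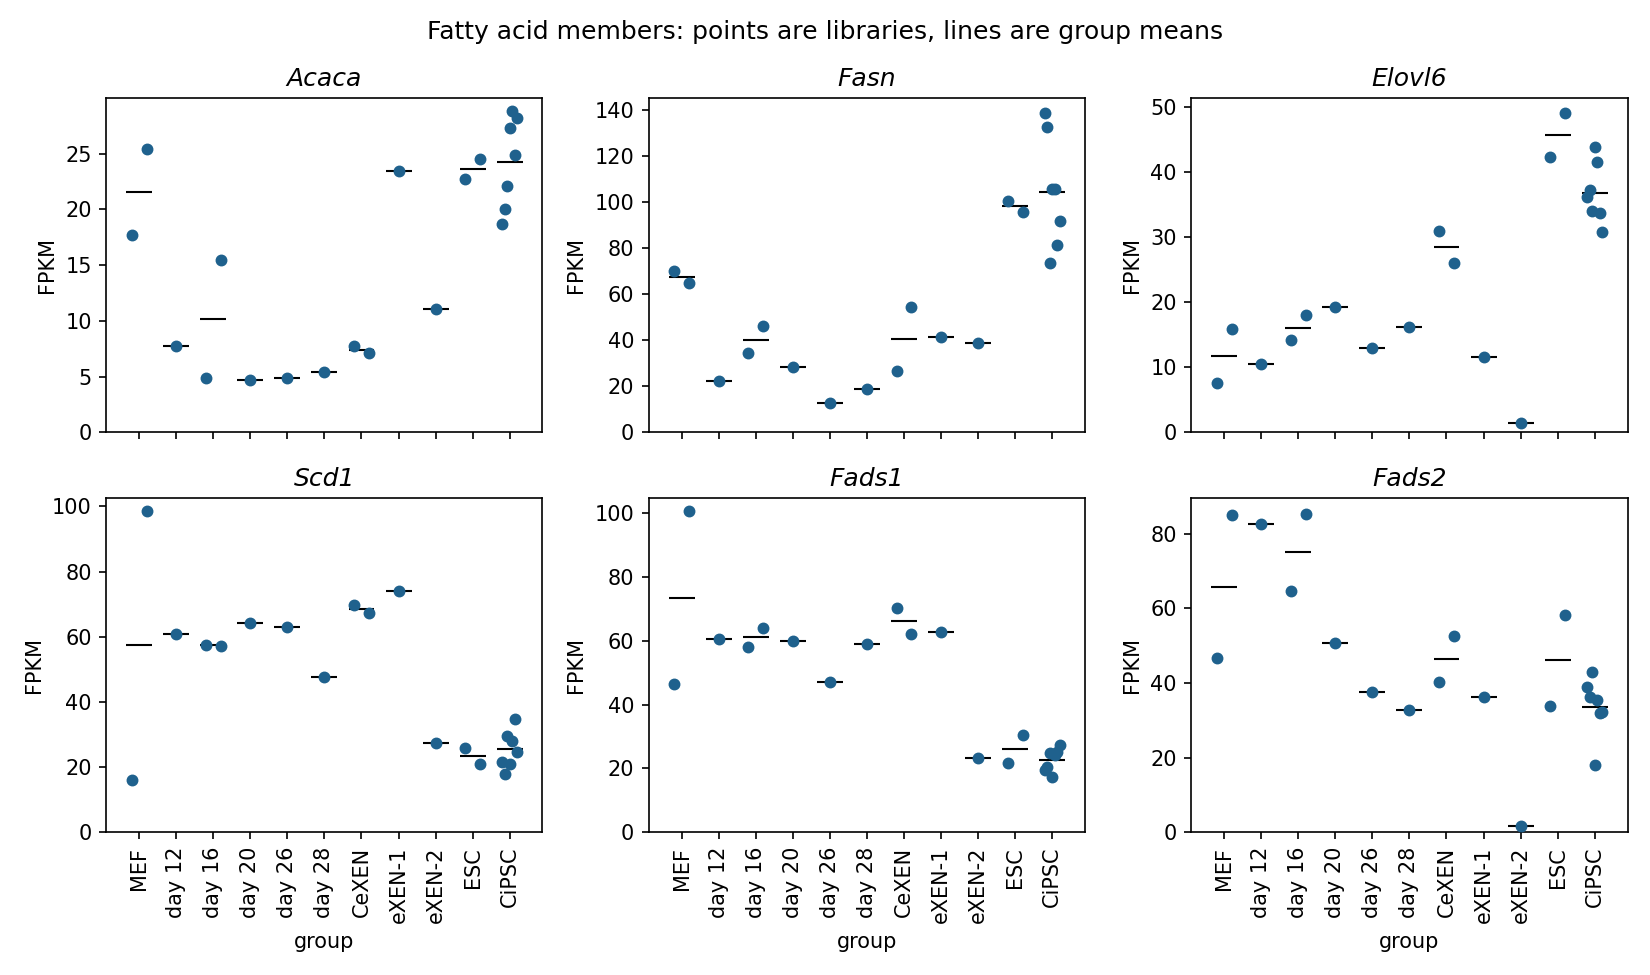
FPKM of 6 fatty acid genes by group (points are libraries, lines are group means; linear axes from 0). Acaca, Fasn and Elovl6 are higher in the 7 CiPSC lines than in the day 16 libraries, and Scd1, Fads1 and Fads2 are lower.

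The comparisons between groups were tested in 1 model over all 21 libraries (limma, Benjamini-Hochberg adjustment over 16650 genes), and calls required both an adjusted p under 0.05 and a log2 change of at least 1 in size. Changes are on the log2(FPKM + 1) scale with the SE of the fit. That SE rests on the pooled spread of the replicated groups, to which the CiPSC lines contribute most.

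From day 16 to the CiPSC lines the fatty acid genes Fasn, Acaca and Elovl6 rose, and the desaturase genes Fads1, Fads2 and Scd1 fell. Fasn was at 40.2 ± 8.14 (SD, n = 2) FPKM at day 16 and at 104 ± 24.5 (SD, n = 7) in CiPSC, a log2 change of 1.33 ± 0.27 with an adjusted p of 0.0011 in limma. Acaca rose by 1.34 ± 0.30 and Elovl6 by 1.14 ± 0.22. Fads1 went from 61.0 ± 4.32 (SD, n = 2) to 22.7 ± 3.57 (SD, n = 7), a log2 change of -1.40 ± 0.24 with an adjusted p of 0.000408 in limma. Fads2 (-1.16 ± 0.30) and Scd1 (-1.18 ± 0.44) fell as well, and Scd2 and Acly were not called (0.05 and 0.39). Among the mevalonate genes, Hmgcs1 (1.48 ± 0.37), Fdps (1.45 ± 0.28) and Idi1 (1.18 ± 0.24) rose. Of the sterol-committed genes, Lss rose (1.13 ± 0.40) and Ebp fell (-1.29 ± 0.28), and 9 were not called. Insig1 rose (1.32 ± 0.37) and Stard4 fell, from 24.7 ± 0.251 (SD, n = 2) to 9.18 ± 1.78 (SD, n = 7) FPKM (-1.35 ± 0.20). In all, 8 of the 30 genes were called higher and 5 lower. Of all tested genes, 12.9% were called higher, 17.1% lower and 30% in either direction, so the share of the 30 genes lay above that of all genes in the higher direction and near it in the lower. The median change was 0.37 over the 30 genes and -0.02 over all genes. Ebp is X-linked, and Xist, the RNA that coats an inactive X, had 4.15 and 22.7 FPKM at day 16 and 0.107 to 0.275 in CiPSC, and its part in the result was not tested. The calls of Acaca, Elovl6, Hmgcs1 and Lss were lost without day 16 replicate 1 (changes of 0.60, 0.98, 1.36 and 0.58), that of Lss also with no filter on low values, those of Fads2 and Insig1 without day 16 replicate 2 (-0.96 and 0.74), and that of Scd1 without either (-1.17 and -1.18). In all, 8 genes were called without replicate 1 and 11 without replicate 2. Scd1 also missed the threshold with no filter, with quantile normalization, with the eXEN libraries as 1 group and with C1 and C2 averaged, at changes of -1.12 to -1.22 over all alternatives, and Fads2 missed it with the eXEN libraries as 1 group (-1.16). Fasn, Fdps, Idi1, Ebp, Stard4 and Fads1 were called under all alternatives run. The day 16 replicates also differed in the summed level of 7 pluripotency markers (195 and 5.66 FPKM) and of 8 fibroblast markers (204 and 472.5), and their part in the result was not tested.

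**Figure D4:**
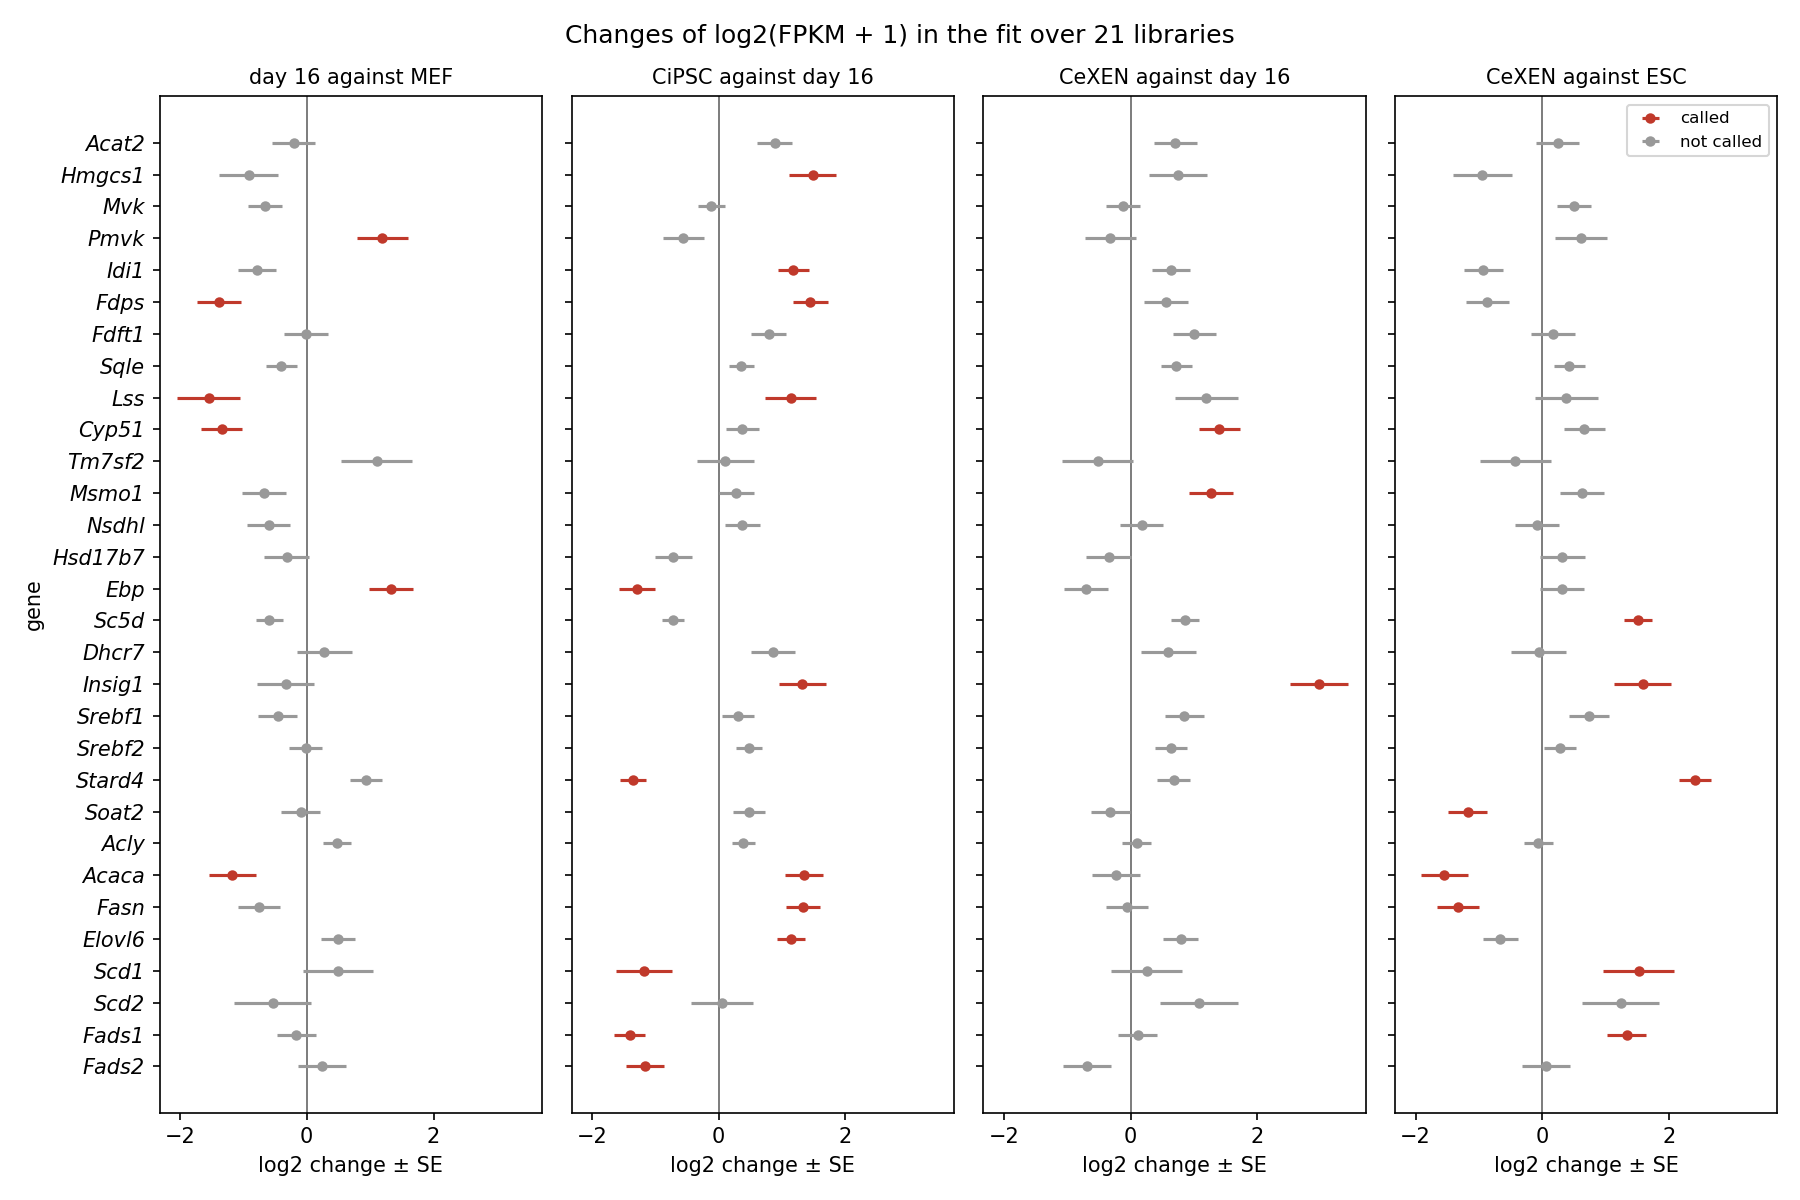
Log2 changes of 30 genes in 4 comparisons of the fit over 21 libraries (points, with SE bars; red where called). In the comparison of CiPSC with day 16, 8 red points lie to the right of 0 and 5 to the left, and Insig1 has the largest change, 2.98, in CeXEN against day 16.

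Whether sterol genes differ between XEN cells derived in the chemical medium and the XEN-like cells of reprogramming was asked by comparing CeXEN with day 16. Insig1 was at 31.9 ± 17.7 (SD, n = 2) FPKM at day 16 and at 238 ± 6.16 (SD, n = 2) in CeXEN, and its rise of 2.98 ± 0.46 log2 units had an adjusted p of 0.000819 in limma. The lanosterol demethylase gene Cyp51 rose from 20.8 ± 2.39 to 56.6 ± 8.82 (1.40 ± 0.33, adjusted p in limma 0.0116) and Msmo1 from 33.4 ± 3.36 to 86.1 ± 40.3 (1.26 ± 0.35, adjusted p in limma 0.0267). 3 of the 30 genes were thus called higher and none lower, where 2.26% of all tested genes were called higher, 9.28% lower and 11.5% in either direction. The median change was 0.61 over the 30 genes and -0.13 over all genes, and 21 of the 30 changes were positive, against 6262 of all 16650. No fatty acid gene was called: Fasn differed by -0.06 ± 0.33, Fads1 by 0.11 ± 0.30 and Scd2 by 1.08 ± 0.61. Without CeXEN replicate 2 or without day 16 replicate 1 Insig1 alone was called, although the change of Cyp51 stayed at 1.24 to 1.555 over all alternatives. Msmo1 (0.77 to 1.75) was also lost without day 16 replicate 2, with no filter and with the eXEN libraries as 1 group. In a fit of these 2 groups alone limma called no gene of the 16650. Quantile normalization moved the split of all called genes from 376 higher and 1545 lower to 630 higher and 863 lower and left 3 of the 30 called, all higher. The 8 fibroblast markers summed to 204 and 472.5 FPKM at day 16 and to 7.60 and 47.1 in CeXEN, and the 7 pluripotency markers to 195 and 5.66 at day 16 and to 21.7 and 51.3 in CeXEN, and their part in the result was not tested. CeXEN and day 16 also differ in strain, as do CeXEN and ESC. Culture medium may differ between these groups as well, and the parts of strain and medium were not tested.

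Against ESC, the CeXEN cells had more of the cholesterol carrier Stard4, of the sterol desaturase Sc5d and of the fatty acid desaturases Scd1 and Fads1, and less of Acaca and Fasn. Stard4 was at 40.7 ± 8.89 FPKM in CeXEN and at 6.94 ± 2.14 in ESC (n = 2 libraries each), a log2 change of 2.40 ± 0.25 with an adjusted p of 1.1e-05 in limma. Sc5d, at 36.4 and 37.7 against 12.2 and 12.6 FPKM, rose by 1.504 ± 0.22 with an adjusted p of 0.000142 in limma. Insig1 (1.58 ± 0.46), Scd1 (1.52 ± 0.55) and Fads1 (1.33 ± 0.30) were called higher as well. Acaca stood at 7.72 and 7.09 in CeXEN and at 22.7 and 24.5 in ESC, a log2 change of -1.55 ± 0.37 with an adjusted p of 0.00502 in limma. Fasn (-1.34 ± 0.33) and Soat2 (-1.18 ± 0.31) were called lower too, the latter with 0.25 and 0.0644 FPKM in CeXEN and 1.31 and 1.96 in ESC. The other fatty acid genes were not called, with Scd2 at 1.23 ± 0.61, Elovl6 at -0.66 ± 0.27, Fads2 at 0.05 ± 0.38 and Acly at -0.06 ± 0.23. No mevalonate gene was called, with Hmgcs1, Idi1 and Fdps at -0.95, -0.93 and -0.87. Thus 5 genes were called higher and 3 lower, 8 of 30, where 12.5% of all genes were called higher, 17.8% lower and 30.3% in either direction, so the overall share lay near that of all genes. The medians were 0.29 over the 30 genes and -0.15 over all genes. Stard4, Sc5d, Fads1 and Acaca were called under all alternatives run. Insig1 was lost without either CeXEN replicate (changes of 1.55 and 1.60), or without ESC replicate 2 (1.13), Fasn without CeXEN replicate 1 (-0.84), Soat2 without ESC replicate 2 or with quantile normalization (-0.65), and Scd1 without any single library of the 4, at changes of 1.37 to 1.66 over all alternatives. Scd1 and Soat2 were also lost with the eXEN libraries as 1 group, Scd1 with no filter or quantile normalization, and Insig1 and Fasn in a fit of the 2 groups alone.

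Day 16 was compared with MEF to ask what changes on leaving the fibroblast state, and the calls differed with the MEF library used. Fdps stood at 77.7 and 218 FPKM in MEF replicates 1 and 2 and at 45.2 and 53.8 at day 16, and Lss at 21.3 and 49.2 in MEF and 6.80 and 15.8 at day 16. Fdps (-1.38 ± 0.34), Lss (-1.55 ± 0.50), Cyp51 (-1.34 ± 0.33) and Acaca (-1.18 ± 0.37) were called lower, and Pmvk (1.19 ± 0.40) and Ebp (1.33 ± 0.35) higher. With 2 higher and 4 lower, 6 of the 30 genes were called, against 13.6% of all tested genes higher, 7.5% lower and 21.1% in either direction, so the share called in either direction is near the background. The 2 MEF libraries differed in adipocyte markers (35.6 FPKM in sum in replicate 2 with Adipoq at 2.11, 0.868 in replicate 1 with Adipoq at 0) and in the sum of 8 fibroblast markers (4358 in replicate 1, 13407 in replicate 2), and their part in the result was not tested. Without MEF replicate 2, 5 of the 30 genes were called higher and 0 lower. Without MEF replicate 1, 0 were called higher and 8 lower. None of the 30 was called without day 16 replicate 1, nor in a fit of the 2 groups alone, in which limma called none of the 16650 genes either. Ebp lay at 14.5 and 19.5 in MEF and at 45.4 and 42.2 at day 16, with Xist at 0.00358 and 4.20 FPKM in MEF, and its call was lost without MEF replicate 1 or day 16 replicate 1. The median change of all genes was 0.22, and it was -0.02 after quantile normalization, which turned the split of all called genes from 2270 higher and 1249 lower to 1580 higher and 1784 lower. Relative to that shift the median of the 30 genes, -0.33, was lower still (-0.58 after quantile normalization). This median also differed with the MEF library used. Without MEF replicate 2 it was 0.29, against 0.24 for all genes, and without MEF replicate 1 it was -0.76, against 0.20 for all genes.

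In CiPSC against MEF, Elovl6 rose and Sc5d and Fads1 fell under all alternatives run. Elovl6 was at 7.62 and 15.9 FPKM in MEF and at 30.8 to 43.8 in the 7 lines, a log2 change of 1.64 ± 0.22 with an adjusted p of 3.09e-05 in limma. Sc5d, at 25.8 and 35.9 in MEF and 9.99 to 15.6 in CiPSC, fell (-1.31 ± 0.17), as did Fads1 (-1.57 ± 0.24). Tm7sf2 (1.21 ± 0.45) and Dhcr7 (1.13 ± 0.35) were called higher and Hsd17b7 (-1.03 ± 0.29) lower. That made 3 genes higher and 3 lower, 6 of 30, where 21.6% of all genes were called higher, 15.3% lower and 36.9% in either direction. The share was thus below the background. Without MEF replicate 2, 9 genes were called higher and 2 lower, and without MEF replicate 1, 1 higher and 8 lower. Hsd17b7 was lost without MEF replicate 2 (-0.81) and Tm7sf2 without CiPSC C3 (1.14). With the eXEN libraries as 1 group, Tm7sf2 and Dhcr7 were lost at the same changes, which left 1 gene higher and 3 lower. Tm7sf2 was also lost with no filter and in a fit of the 2 groups alone, and Dhcr7 with quantile normalization. Both were lost without MEF replicate 1 (0.19 and 0.35) and with median-of-ratios scaling, which moved the median of all genes from 0.25 to 0.05, the split of all called genes from 3597 higher and 2549 lower to 2678 higher and 3131 lower, and that of the 30 genes to 1 higher and 6 lower.

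CiPSC and ESC were compared to ask how near the reprogrammed lines came to embryonic ones. None of the 30 genes was called by limma, and 1 had an unadjusted p under 0.05, against 1497 of all genes. That gene was Mvk, at 10.6 and 11.8 FPKM in ESC and 12.6 to 21.6 in CiPSC (0.49 ± 0.21, adjusted p in limma 0.532). Of all tested genes 0.0661% were called, 0.036% higher and 0.03% lower. The changes of the 30 genes lay from -0.43 (Fads2) to 0.49 (Mvk), with SEs from 0.17 to 0.49, so a difference of 1 log2 unit could not have been seen for every gene. The lines varied among themselves. G1 was the lowest line for 16 of the 30 genes and C3 the highest for 14, followed by N4 for 8. The same counts were not made over all tested genes, so they cannot be read as a trait of these genes. The mean log2 level of the 17 sterol synthesis genes was 4.60 in G1, 5.15 in C3 and 5.06 in N4, with the other 4 lines at 4.85 to 4.92. C3 is the shallowest library of the 21 and N4 the deepest. Scd2 was at 182 FPKM in C3 and 139 in N4, against 86.8 to 106.6 in the others.

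Within the cells on the way, a straight line over the 6 libraries from day 12 to day 28 called 0 genes in limma (0% of all tested genes, and 0% higher or lower), of the 30 as of all 16650, while 9 of the 30 and 3349 of all had an unadjusted p under 0.05. The size is given as the change over 16 days. Fads2, at 82.5, 64.7, 85.4, 50.7, 37.5 and 32.7 FPKM in day order, had -1.40 ± 0.19, Nsdhl -1.14 ± 0.16 and Fdps -1.27 ± 0.18, each with an adjusted p in limma of 0.175. Acly, at 72.6, 126, 91.2, 159, 165 and 216, had 1.37 ± 0.26 and was the only 1 of the 9 with a positive slope. Mean log2 levels of the 17 sterol synthesis genes were 4.67 at day 12, 4.49 and 4.64 at day 16, 4.55 at day 20, 4.18 at day 26 and 4.14 at day 28. Day 12, day 20, day 26 and day 28 are single libraries, so their levels have no replicate check.

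**Figure D5:**
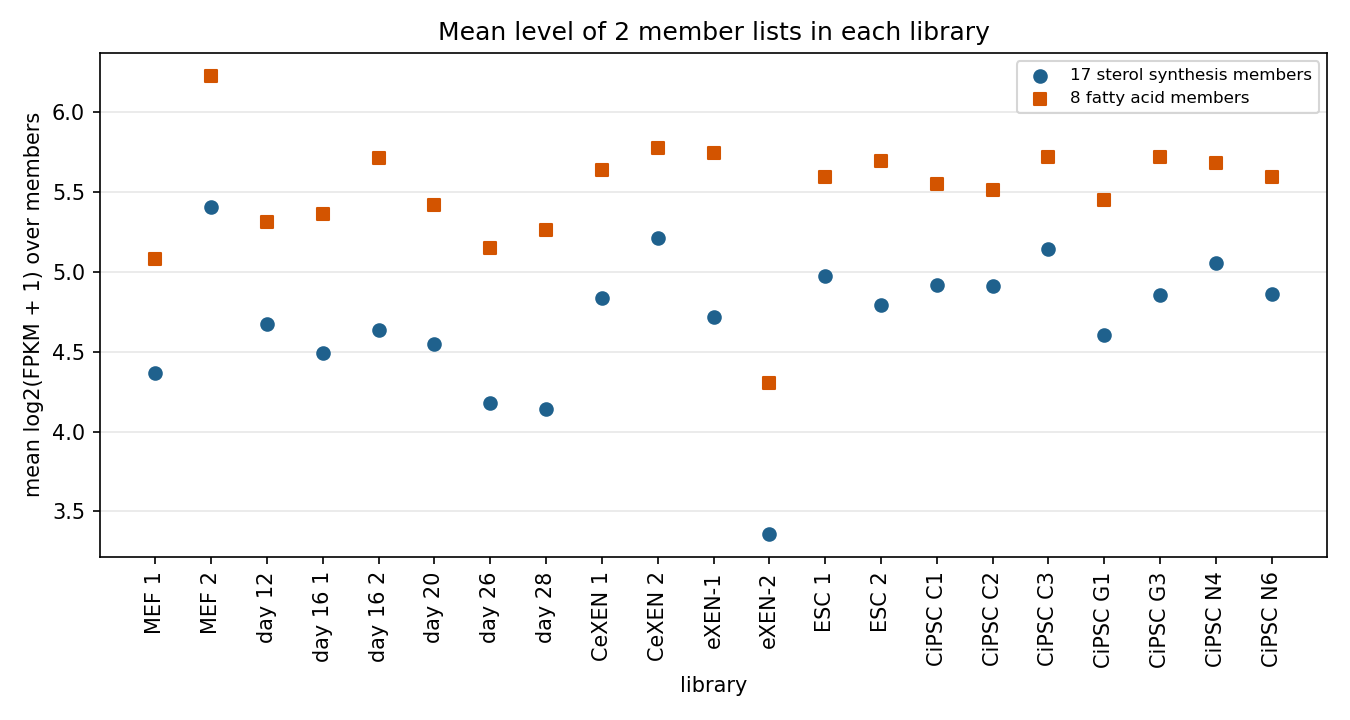
Mean log2(FPKM + 1) of 17 sterol synthesis genes (circles) and of 8 fatty acid genes (squares) in each of 21 libraries; the axis does not start at 0. eXEN-2 is lowest for both lists (3.36 and 4.30), MEF replicate 2 is highest for both (5.41 and 6.23), and MEF replicate 1 lies far below it (4.37 and 5.08).

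Other genes of lipid metabolism were read from 5 lists, with log2 changes called by limma in parentheses. The calls of single genes of these lists were not checked under the alternatives. In a fit of the compared groups alone, limma called no gene at day 16 against MEF or in CeXEN against day 16. Of 19 other sterol and SREBP target genes, 7 were past 2-fold higher and 1 lower in eXEN-1 than in eXEN-2 (7.05% and 3.97% of all tested genes). Elovl5, an elongase of polyunsaturated fatty acids, was at 78.0 FPKM in eXEN-1 and 28.0 in eXEN-2. In CeXEN against ESC, where 12.5% of all tested genes were called higher and 17.8% lower, 4 of the 19 were called higher and 2 lower: malic enzyme Me1 (3.12), which supplies NADPH, and the elongase gene Elovl1 (3.06) rose, and Acacb, a mitochondrial relative of Acaca, fell (-2.99). The uptake, efflux and storage list had 6 of 14 tested genes higher and 1 lower in CeXEN. Its lipoprotein receptor gene Vldlr stood at 46.2 against 0.991 FPKM (4.56), the cholesterol esterifying enzyme gene Soat1 at 269 against 12.4 (4.33) and the scavenger receptor gene Lrp1 at 0.907 against 19.4 (-3.42). From day 16 to CiPSC (12.9% of all genes higher, 17.1% lower) that list had 0 of 14 higher and 6 lower, led by Mylip (-2.46), which degrades lipoprotein receptors, Lipa (-2.37), the lysosomal lipase, and Soat1 (-2.16). Of 19 other targets, 2 were higher and 4 lower there, among them Acacb (2.21), Elovl1 (-2.17) and Pnpla3 (-2.10). Triglyceride and lipid droplet genes had 0 of 13 higher and 4 lower, among them the fatty acid binding protein genes Fabp5 (-3.37) and Fabp3 (-2.50) and the acyltransferase gene Dgat2 (-1.84). Fatty acid oxidation had 1 of 11 higher and 4 lower, led by the coactivator gene Ppargc1a (-3.23), with the peroxisomal enzyme gene Ehhadh (-1.53) and the acyl-CoA dehydrogenase gene Acadl (-1.31). Of 9 tested genes of SREBP processing and sterol sensing, 1 rose and 2 fell from day 16 to CiPSC. Mbtps2 (1.21), a protease that frees SREBP, was the gene that rose, and Scap (-1.09), the SREBP escort, was among those that fell. Scap was also lower in CeXEN than at day 16 (5.86 against 29.1 FPKM, -2.16) and was the single gene of that list called there. In CeXEN against day 16 (2.26% of all genes higher, 9.28% lower), 5 of the 19 other targets were called higher and 0 lower, among them Lpin1 (2.33) and Me1 (1.85). The uptake, oxidation and triglyceride lists had 1 called gene each there, all lower: Lrp1 (-3.26), Ppargc1a (-2.77) and Lpl (-2.72). At day 16 against MEF (13.6% of all genes higher, 7.5% lower), the oxidation list had 3 genes higher and 0 lower, led by Ppargc1a (3.04), and the triglyceride list 4 higher and 0 lower, led by Fabp3 (6.96, 1644 against 12.1 FPKM). The other targets there had 1 higher (Pnpla3, 3.02) and 1 lower (Aacs, -1.85), the uptake list 1 higher (Apoe, 2.65) and 3 lower, and the sterol sensing list 0 higher and 1 lower (Nfe2l1, -1.08). In CiPSC against MEF (21.6% of all genes higher, 15.3% lower), the uptake list had 1 higher (Apoe, 4.25) and 6 lower, led by Lipa (-2.82). The other targets had 2 higher and 4 lower, oxidation 2 and 2, triglyceride genes 2 and 3, and sterol sensing 0 and 2. In CeXEN against ESC, oxidation had 2 higher and 2 lower, triglyceride genes 2 and 1, and sterol sensing 1 and 1. Between the eXEN libraries, 4 uptake genes were past 2-fold higher in eXEN-1 and 0 lower, among them Scarb1 (31.1 against 6.02 FPKM), a receptor that takes up cholesterol esters from lipoproteins. The triglyceride list had 2 higher and 2 lower, sterol sensing 1 higher and oxidation 1 lower. None of these lists had a called gene in CiPSC against ESC (0.0661% of all genes called), where 6 of their genes had an unadjusted p under 0.05 in limma.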

How the data were processed

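RNA of 21 libraries was measured by sequencing. Per the labels' protocols, RNeasy kits were used for extraction and the NEBNext Ultra RNA kit for libraries. The submitters' processing notes name TopHat, Cufflinks and mm10 (versions are not given in the sources used here), and the deposited tables hold FPKM per gene as the authors' quantifier estimated it, with bounds but no counts. Depth was therefore estimated only relative to ESC replicate 1, and FPKM near 0 rests on few fragments. From there log2(FPKM + 1) was fitted in limma 3.58.1 (R 4.3.3) with an intensity trend, 11 groups and 10 residual degrees of freedom, over genes that reached an FPKM of 1 in 2 or more libraries. P-values were adjusted by Benjamini-Hochberg over all tested genes. They measure only the spread between these libraries, which may be technical. In the fit of 11 groups that spread is pooled over the replicated groups, and most of its degrees of freedom come from the CiPSC lines. The trend was fitted apart, on the 6 libraries from day 12 to day 28, and its spread is that around the line. At genes over 200 estimated fragments, the mean squared difference in counting-noise units was 128 between MEF libraries and 92.7 between day 16 libraries. It was 4.01 to 64.3 for pairs of CiPSC lines, with CeXEN (53.5) and ESC (31.2) inside that range. SEs and p-values of comparisons with MEF or day 16 may therefore be too small. The code was tested on simulated data. Tables and figures used Python 3.11.15, pandas 2.3.3, numpy 2.4.6 and matplotlib 3.10.9.

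CiPSC lines C1 and C2 differed by less than counting noise at genes of 4 to 60 estimated fragments (mean squared z 0.853, against 1.54 to 4.82 in other pairs). Over 200 fragments they differed by more than that noise (4.01), but far less than other pairs (15.2 to 128). C1 and C2 were thus the most alike pair at both and may not be independent. The lines were kept as 7, with the average of C1 and C2 as an alternative. Members and lists were chosen with earlier results of these data known. A member was given library by library where it was past 2-fold between the eXEN libraries or called with an absolute log2 change of at least 2, and up to 3 called genes per other list were named by size of change. Some genes this rule selects are not reported here. Alternatives were the pseudocount (0.1), no filter or a filter at 5 FPKM, quantile normalization, median-of-ratios scaling, a robust prior without the trend, only the groups compared, a replicate block, both eXEN libraries as 1 group, the rank of the day in place of the day, and leaving out each replicate. Averaging C1 and C2, and leaving out C3, were chosen after seeing the data.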

Additional observations from a re-analysis of the deposited data

Results flagged for a closer look

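Stard4, the cholesterol carrier gene, was at 12.9 FPKM in CiPSC C3, while the other 6 CiPSC lines lay between 7.61 and 9.50 FPKM. The gap from C3 to the next line took up so much of the range of the 7 lines that C3 stood apart by Dixon's criterion. Of 30 such groups of lines tested, 1 per gene, this was the only 1 that did, and chance alone would set about 1 in 20 groups apart. C3 is also the shallowest library.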

How the results depend on the processing

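Of 36 called changes, 13 were called under every alternative run, among them Stard4, Sc5d, Fads1 and Acaca in CeXEN against ESC, and Fasn, Fdps, Idi1, Ebp, Stard4 and Fads1 in CiPSC against day 16. None changed sign. At day 16 against MEF, 6 of the 30 genes were called, but 3 with no filter on low values, 0 in a fit of the groups compared, and 0 to 8 when 1 replicate was left out. In CeXEN against day 16, 3 were called, 0 in a fit of the groups compared, where fewer libraries estimate the spread, and 1 to 4 when 1 replicate was left out. The counts with 1 replicate left out were 9 to 11 in CiPSC against MEF, 8 to 11 in CiPSC against day 16, 6 to 7 in CeXEN against ESC, and 0 in CiPSC against ESC and in the trend. With median-of-ratios scaling the split of all called genes at day 16 against MEF was 1666 higher and 1753 lower, and that of all genes past 2-fold between the eXEN libraries 901 higher and 896 lower, with 18 of the 30 genes higher and 2 lower. Quantile normalization moved the median of all genes in CeXEN against ESC from -0.15 to 0.00, and that of CeXEN against day 16 from -0.13 to 0.03. The cause of the other changes was not tested. The labels number replicates in several groups. Deviations of same-numbered libraries correlated at -0.10 to 0.04, so they showed no large deviation in common. Such a correlation cannot exclude that same-numbered libraries share an origin or a preparation. With a replicate block the counts were 6, 6, 13, 3, 8 and 0 for day 16 against MEF, CiPSC against MEF, CiPSC against day 16, CeXEN against day 16, CeXEN against ESC and CiPSC against ESC, as without it. Without counts, depth limits Soat2 most.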
